A study of Mus musculus with 6 samples.

Results

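Genes that copy DNA and divide the cell were compared between the CD133 high and CD133 low fractions of 344SQ tumours. The members were 55 genes chosen by name, 26 of S phase, 26 of mitosis and the 3 D-type cyclins of G1. A gene was represented by its brightest probe set over all 6 arrays among the probe sets assigned to that gene alone, which gave 54 of the 18193 genes on the array, with all 26 S phase genes, 25 mitotic genes and all 3 D-type cyclins. Ccnb1, the gene of cyclin B1, was not analysed here. The line 344SQ came from a lung adenocarcinoma of a mouse that carried the allele p53R172HdelG/+, so every sample shares a mutant p53, and it was grown under the skin of syngeneic mice. The tumours were sorted by flow cytometry on CD133, a surface glycoprotein encoded by Prom1, and total RNA of each fraction was hybridised to 3 Affymetrix arrays. The labels name no agent, no age and no count of animals, and the design rests on 1 cell line. Whether arrays of a fraction stem from separate tumours is not said, so a p-value reflects the scatter among these samples alone, and that scatter may be technical. Values are listed in the order of replicates 1, 2 and 3 of each fraction throughout. The labels number no replicates, so these numbers were given here by the order of the samples in the series.

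A cell licenses its origins in G1 by loading the MCM2-7 helicase, and D-type and E-type cyclins then release E2F factors from the retinoblastoma protein, so that the genes of DNA synthesis are transcribed. The helicase fires with Cdc45 and the GINS complex, polymerases copy both strands behind it, and ribonucleotide reductase and thymidylate enzymes supply the building blocks. Genes of mitosis follow later, through promoter elements read by the MuvB core with B-Myb and FoxM1, and their products condense chromosomes, build the spindle, check attachment and destroy cyclin B. In lung tumours these genes are commonly read as a measure of how many cells are cycling. In a sorted mixture, fewer cycling cells and less RNA per cycling cell cannot be told apart.

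CD133 high replicate 1 stood nearer to the CD133 low arrays than to the other CD133 high arrays, so each group result is given with its values on each array. Its mean Spearman rho across probe sets was 0.973 with the CD133 low arrays and 0.931 with the other CD133 high arrays. CD133 high replicates 2 and 3 also had hybridisation controls of 11.29 and 11.04, where the other 4 arrays had 10.19 to 10.51. They also had a Gapdh probe set at the 3' end that exceeded the middle one by 0.44 and 0.46, against −0.13 to −0.07 on the others. All values are log2 probe set values as deposited, and a probe set was taken as above background on an array where it exceeded the 90th percentile of 44 probe sets of olfactory receptor genes, which lay between 6.94 and 7.27. By that measure Epcam, Cdh1, Krt7, Krt8, Krt18, Krt19 and Cldn7, markers of epithelium, were above background on all 6 arrays, whereas Prom1 was so on none, with means of 6.61 in the CD133 high and 5.82 in the CD133 low fraction (adjusted p = 0.297). The lung markers Nkx2-1 and Sftpc were above background on 1 and 2 of the 6 arrays. Cldn4 was above background on 2 of 3 CD133 high and 3 of 3 CD133 low arrays, and Cldn3 on 1 and 2. Of these 12 epithelial and lung markers, Prom1 included, 0 passed in limma. All CD133 high arrays were higher for 2, Krt8 and Prom1, and lower for 2, Cldn7 and Cldn4, where 10.8% and 12.8% of all genes were so. On CD133 high replicates 1, 2 and 3 their median lay 0.07, 0.11 and −0.33 from the CD133 low mean. The fractions also held host cells. Markers of macrophages and of fibroblasts were above background on all 6 arrays for 10 of 10 and 9 of 9 genes. Of either list 0 passed the test at an adjusted p under 0.05 in limma, where 0.253% of all genes passed. At an unadjusted p under 0.05 in limma there were 2 and 0, beside 18.2% of all genes. In limma at an adjusted p under 0.05, 5 of 13 T and natural killer cell markers fell and 3 of 9 B and plasma cell markers fell, where 0.231% of all genes did. On CD133 high replicates 1, 2 and 3 the median of the T and natural killer cell list lay −0.90, −1.55 and −1.75 from the CD133 low mean, and that of the B and plasma cell list −2.25, −0.47 and −0.56. The mean log2 value over the T and natural killer cell list ran from 8.32 to 8.55 on the CD133 low arrays and from 6.86 to 7.30 on the CD133 high arrays, and that over the B and plasma cell list from 9.68 to 10.02 and from 7.70 to 8.67. Of the lymphocyte markers Cd4 and Ncr1 had no array above background. Of 6 mast cell markers 0 passed in limma, with 5 lower at an unadjusted p under 0.05, where 9.94% of all genes were, and medians of −0.55, −1.44 and −1.51. Of 4 neutrophil markers and 7 endothelial markers 0 passed in limma, with 0 of each at an unadjusted p under 0.05, beside 18.2% of all genes. The neutrophil medians were 0.93, −0.66 and −1.35, so that CD133 high replicate 1 lay on the other side from replicates 2 and 3, and the endothelial ones 0.31, −0.15 and −0.18. Lymphocytes divide too, and the part of host cells in the values below was not tested.

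No replication or mitosis gene passed the test between the fractions. With limma over all 45037 probe sets and Benjamini-Hochberg adjustment, 0 of the 54 members rose and 0 fell, against 0.022% and 0.231% of all genes. Together 0.253% of all genes passed. At an unadjusted p under 0.05 in limma there were 9 of 54 members, 3 higher and 6 lower in the CD133 high fraction, beside 18.2% of all genes, 8.3% higher and 9.94% lower. The CD133 high and CD133 low arrays did not overlap for 13 members, 5 higher and 8 lower, where 23.6% of all genes had fractions that did not overlap, 10.8% higher and 12.8% lower. These shares lie near or below those of the whole array. The members' differences, taken as the CD133 high mean minus the CD133 low mean, ran from −0.84 to 1.06 on the log2 scale, with a median of −0.13 for S phase genes, 0.0077 for mitotic genes and −0.05 for D-type cyclins, beside 0.00132 for all genes. The smallest adjusted p of a member was 0.123, that of Ccnd2.

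The genes most used as markers of cycling cells did not pass the test. Mki67, the gene of the Ki-67 protein that coats mitotic chromosomes, had log2 values of 9.65, 9.83 and 10.24 (CD133 low) against 9.66, 9.07 and 9.61 (CD133 high). The fractions overlapped, with CD133 high replicate 2 lowest, and the difference was −0.46 (SE 0.23, adjusted p = 0.36), with a 95% interval of −1.01 to 0.09. Top2a, which encodes the topoisomerase that untangles replicated chromosomes, stood at 9.38, 9.73 and 10.01 on CD133 low arrays, with 9.39, 9.37 and 9.66 on CD133 high ones. Its arrays overlapped as well, at a difference of −0.23 (SE 0.20, adjusted p = 0.56) and an interval of −0.71 to 0.24. Cdk1, the kinase that drives entry into mitosis, differed by −0.09 (SE 0.17, adjusted p = 0.786) with an interval of −0.49 to 0.30, and Plk1, a kinase of spindle assembly, by −0.08 (SE 0.18, adjusted p = 0.819) with an interval of −0.50 to 0.33. These intervals leave room for changes in either direction, so the data do not show that the fractions cycle alike.

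Within the MCM2-7 helicase, 2 of 6 subunits had fractions that did not overlap at their brightest probe sets, Mcm5 and Mcm7. Both were lower in the CD133 high fraction, where 12.8% of all genes were lower in that way. Mcm5 stood at 10.85, 11.04 and 10.65 in the CD133 low and 10.49, 9.88 and 9.66 in the CD133 high fraction. Every CD133 high array lay below every CD133 low array, with CD133 high replicates 2 and 3 farthest down. The difference was −0.84 (SE 0.24, adjusted p = 0.297). Mcm7 stood at 10.62, 10.93 and 10.53 (CD133 low) against 10.34, 9.94 and 9.63 (CD133 high) and showed the same order of arrays. It differed by −0.72 (SE 0.22, adjusted p = 0.297). Both of these probe sets may share sequence with other transcripts. A dimmer Mcm5 probe set without that mark gave −0.27 with overlapping arrays. Another without it gave the opposite sign, 0.74, and was above background on CD133 high replicates 2 and 3 alone. A dimmer Mcm7 probe set without that mark gave −0.94 with arrays that did not overlap. The remaining Mcm7 probe sets, which may also share sequence, gave −0.13 and −0.12 with overlapping arrays. At their brightest probe sets the other subunits had overlapping fractions and small differences, 0.13 for Mcm2, −0.21 for Mcm3, −0.13 for Mcm4 and −0.03 for Mcm6, with adjusted p in limma between 0.561 and 0.917. A dimmer Mcm2 probe set, above background on all 6 arrays, gave the opposite sign, −0.33, with all CD133 high arrays lower. Over the 6 subunits the median was −0.35, −0.37 and −0.04 on CD133 high replicates 1, 2 and 3, measured from the CD133 low mean.

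Letters of the E2F type stood in promoters of S phase genes on either side. RefSeq promoters of GRCm38.p6, from 250 bases before to 50 bases after each gene's start, were matched for 44 of the 55 listed genes. On both strands, TTTGGCGC, TTTCCCGC, TTTCGCGC or TTTGCCGC, letters of the E2F type, occurred in 9 of 27 promoters of S phase genes (33.3%), in 1 of 21 promoters of mitotic genes (4.76%) and in 2.26% of all 32851 promoters of that length. Shown, because these genes lay on opposite sides and yet hold such letters, are the promoters of Mcm5, of Mcm7 at the upstream of its 2 entries, and of Pola1, the catalytic subunit of the polymerase that begins each new strand. They are printed 5′ to 3′ along the gene from 250 bases before to 30 bases after the start, with letters of the E2F type, of the CHR type (TTTGAA or TTCGAA) and CCAAT boxes in capitals.
Mcm5 (GRCm38.p6, chr8:75109259-75109538, strand +): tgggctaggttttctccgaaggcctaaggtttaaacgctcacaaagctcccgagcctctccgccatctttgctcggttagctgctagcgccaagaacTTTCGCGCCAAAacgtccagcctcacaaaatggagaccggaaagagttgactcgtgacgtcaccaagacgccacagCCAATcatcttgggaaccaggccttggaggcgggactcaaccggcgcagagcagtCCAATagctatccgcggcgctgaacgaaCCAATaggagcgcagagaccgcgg
Mcm7 (GRCm38.p6, chr5:138171854-138172133, strand −): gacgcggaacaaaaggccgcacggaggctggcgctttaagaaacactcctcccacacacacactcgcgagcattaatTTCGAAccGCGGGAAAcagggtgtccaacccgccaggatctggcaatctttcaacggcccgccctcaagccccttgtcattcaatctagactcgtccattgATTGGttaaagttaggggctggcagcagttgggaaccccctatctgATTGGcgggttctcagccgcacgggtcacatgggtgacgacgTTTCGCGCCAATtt
Pola1 (GRCm38.p6, chrX:93632126-93632405, strand −): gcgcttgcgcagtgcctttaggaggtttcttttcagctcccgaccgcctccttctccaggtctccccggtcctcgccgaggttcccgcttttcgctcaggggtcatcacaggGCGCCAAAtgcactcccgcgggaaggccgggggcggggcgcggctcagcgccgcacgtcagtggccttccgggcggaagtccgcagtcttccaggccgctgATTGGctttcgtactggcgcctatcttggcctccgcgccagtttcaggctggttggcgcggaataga
In Mcm5 a run of E2F letters reads on both strands, so a pair of matches overlaps there, and in Mcm7 an E2F match overlaps a CCAAT box. At their brightest probe sets Mcm5 and Mcm7 were lower on all CD133 high arrays and Pola1 was higher on all of them. Each held an E2F match, Mcm7 at its upstream entry alone, while Rfc4, Prim1, Pcna and Ccne1 held none in this window. A match is a description of the letters and not of binding.

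Helicase loading and firing factors had negative or small differences, Cdc6 excepted. Cdt1, which loads the helicase with Cdc6 at origins, stood at 10.49, 10.44 and 10.34 on CD133 low arrays, with 10.43, 9.45 and 9.40 on CD133 high ones. CD133 high replicate 1 lay among the CD133 low arrays and the other CD133 high arrays about a log2 unit below them. The difference was −0.66 (SE 0.29, adjusted p = 0.325). Cdc6 went the other way in value, at 6.69, 7.21 and 6.89 in the CD133 low and 6.68, 7.38 and 7.75 in the CD133 high fraction, and differed by 0.34 (SE 0.31, adjusted p = 0.588) with overlapping arrays that were above background on 3 of 6. Of the firing factors, Cdc45 and Gins1 had all CD133 high arrays below all CD133 low arrays. Cdc45 stood at 8.11, 7.71 and 7.76 (CD133 low) against 7.63, 7.59 and 7.01 (CD133 high), with a difference of −0.45 (SE 0.23, adjusted p = 0.372). Gins1, a subunit of the GINS complex, stood at 7.61, 7.74 and 7.70 on CD133 low arrays, with 7.58, 7.02 and 6.99 on CD133 high ones, with a difference of −0.49 (SE 0.22, adjusted p = 0.328). CD133 high replicates 2 and 3 were not above background for Gins1, so their level is only a bound. Gins2, another GINS subunit, differed by 0.02 (SE 0.17, adjusted p = 0.968). Thus 4 of the 11 licensing and helicase genes had fractions that did not overlap, all 4 lower, where 12.8% of all genes had that pattern in the lower direction.

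Among the 6 polymerase, clamp and ligation genes 2 had fractions that did not overlap at their brightest probe sets. They were 1 higher and 1 lower, where 10.8% and 12.8% of all genes were so. Rfc4, a subunit of the loader that places the sliding clamp on DNA, stood at 8.49, 8.87 and 8.23 in the CD133 low and 8.10, 7.50 and 7.70 in the CD133 high fraction. All CD133 high arrays were lower, and the difference was −0.76 (SE 0.24, adjusted p = 0.297). Pola1 stood at 7.56, 7.65 and 7.85 (CD133 low) against 7.90, 8.47 and 9.07 (CD133 high). Here all CD133 high arrays were higher, with CD133 high replicate 1 closest to the CD133 low arrays, and the difference was 0.80 (SE 0.30, adjusted p = 0.303). Prim1, the primase subunit that works in the same complex as Pola1, had values of 9.08, 9.27 and 8.79 on CD133 low arrays, with 9.15, 8.002 and 7.88 on CD133 high ones. It was low on CD133 high replicates 2 and 3 alone and differed by −0.70 (SE 0.35, adjusted p = 0.36), so the difference of this subunit had the opposite sign to that of its partner. Pcna, the sliding clamp itself, stood at 11.84, 11.82 and 11.80 in the CD133 low and 11.87, 10.83 and 11.003 in the CD133 high fraction and was likewise low on replicates 2 and 3 alone, with a difference of −0.58 (SE 0.28, adjusted p = 0.347). Lig1, the ligase that seals Okazaki fragments, and Fen1, the nuclease that trims their flaps, differed by −0.23 (SE 0.19, adjusted p = 0.537) and 0.23 (SE 0.19, adjusted p = 0.539). This Fen1 probe set may share sequence with other transcripts. A dimmer one without that mark gave −0.98, with all CD133 high arrays lower.

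Genes that supply nucleotides showed no fractions apart. Rrm1, the large subunit of ribonucleotide reductase, differed by −0.36 (SE 0.20, adjusted p = 0.385), and Rrm2, its small subunit, by 0.33 (SE 0.22, adjusted p = 0.456). Rrm2 stood at 10.13, 10.39 and 10.31 (CD133 low) against 10.17, 10.91 and 10.76 (CD133 high), high on CD133 high replicates 2 and 3. That probe set may share sequence with other transcripts. A dimmer one without that mark, above background on all 6 arrays, gave the opposite sign, −0.30. It stood at 9.89, 10.23 and 10.11 (CD133 low) against 9.97, 9.60 and 9.75 (CD133 high). Tk1, the thymidine kinase of the salvage route, differed by −0.13 (SE 0.16, adjusted p = 0.682), and Ung, which removes uracil from DNA, by −0.45 (SE 0.24, adjusted p = 0.382). Tyms, thymidylate synthase, was above background on none of the 6 arrays, so no difference is read from it.

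Of the 4 regulators of S phase entry, 3 had positive differences, and none passed the test. With the hybridisation controls as covariate 2 of these 3 turned sign, Ccne1 to −0.030 and Uhrf1 to −0.18. Those controls were highest on CD133 high replicates 2 and 3, so that fit rests largely on replicate 1. On replicate 1 Ccne1 and Uhrf1 lay at −0.18 and −0.15 from the CD133 low mean. Ccne1, the gene of cyclin E1, stood at 9.68, 9.52 and 9.80 on CD133 low arrays, with 9.49, 11.26 and 11.42 on CD133 high ones. CD133 high replicates 2 and 3 lay well above all other arrays, while CD133 high replicate 1 was the lowest of the 6. The difference was 1.06 (SE 0.49, adjusted p = 0.342), with an interval of −0.12 to 2.23. The other probe set of Ccne1, above background on 1 of 6 arrays, gave 0.41. Ccne2, its paralogue, stood at 7.19, 7.06 and 7.49 in the CD133 low and 7.49, 7.66 and 8.002 in the CD133 high fraction. Its fractions only just failed to overlap, with the lowest CD133 high value next to the highest CD133 low value, and the difference was 0.47 (SE 0.22, adjusted p = 0.336). Uhrf1, which carries DNA methylation through replication, was also high on CD133 high replicates 2 and 3 alone, at 9.56, 9.66 and 9.38 (CD133 low) against 9.38, 10.73 and 10.44 (CD133 high), with a difference of 0.65 (SE 0.34, adjusted p = 0.372). Its dimmer probe set gave −0.76 (SE 0.83), at 7.46, 7.21 and 7.34 (CD133 low) against 7.26, 7.98 and 4.50 (CD133 high). CD133 high replicate 3 was not above background there, and replicate 2 lay above all CD133 low arrays. E2f1, the gene of the transcription factor itself, stood at 8.34, 7.96 and 7.93 on CD133 low arrays, with 7.94, 8.47 and 7.77 on CD133 high ones and differed by −0.01 (SE 0.24, adjusted p = 0.981). The median of these 4 regulators was −0.14 on CD133 high replicate 1 and 0.81 and 0.83 on replicates 2 and 3, whereas that of the 6 polymerase, clamp and ligation genes was −0.03, −0.52 and −0.44. On these 2 arrays the medians lay on opposite sides of the CD133 low mean, but single genes did not all follow them. Pola1 was at 0.79 and 1.39, Fen1 at 0.50 and 0.31, and E2f1 at −0.30 on replicate 3. For Fen1 this holds at the brightest probe set alone, since its dimmer one differed by −0.98. The difference between the groups was not tested, and the medians stand beside the Gapdh differences of 0.44 and 0.46 given for these arrays, whose part was not tested.

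**Figure D1:**
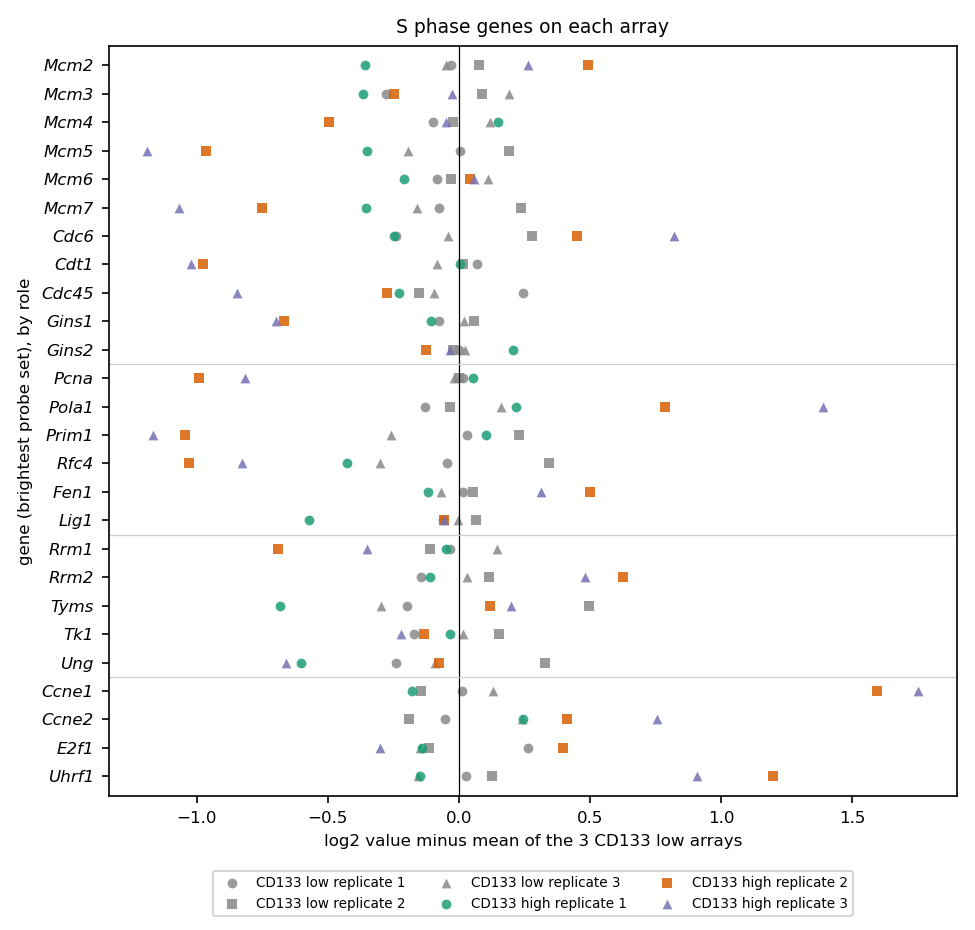
Each point is the log2 value of an S phase gene on an array minus the mean of the 3 CD133 low arrays, with genes in rows by role and colours for arrays. Each gene is shown at its brightest probe set. Mcm5, Mcm7 and Rfc4 lie left of 0 on all 3 CD133 high arrays, while Ccne1 lies at 1.60 and 1.75 on CD133 high replicates 2 and 3 and at −0.18 on replicate 1.

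The mitotic genes gave 2 of 25 members on each side whose fractions did not overlap, fewer than the 10.8% higher and 12.8% lower of all genes. Bub1, a kinase of the spindle checkpoint, stood at 7.94, 7.87 and 7.95 in the CD133 low and 8.02, 8.15 and 8.37 in the CD133 high fraction, with every CD133 high array above the CD133 low range and a difference of 0.26 (SE 0.16, adjusted p = 0.437). Hmmr, which encodes a spindle protein that also binds hyaluronan, stood at 7.91, 7.67 and 7.79 (CD133 low) against 8.07, 7.96 and 8.86 (CD133 high). Its CD133 high replicate 3 lay highest, and the difference was 0.50 (SE 0.26, adjusted p = 0.373). A dimmer probe set of Hmmr gave 0.74 without overlap. Another gave −0.37 with overlapping arrays and was above background on 1 of 3 CD133 high arrays. Cdc20 and Ube2c, an activator of the anaphase promoting complex and the enzyme that supplies it with ubiquitin, were lower on all CD133 high arrays. Cdc20 stood at 10.51, 10.85 and 10.55 on CD133 low arrays, with 10.42, 10.39 and 10.05 on CD133 high ones, a difference of −0.35 (SE 0.17, adjusted p = 0.359), and a dimmer probe set of Cdc20 without shared sequence gave 0.32. Ube2c stood at 9.25, 9.63 and 9.12 in the CD133 low and 8.90, 8.76 and 9.02 in the CD133 high fraction, a difference of −0.44 (SE 0.18, adjusted p = 0.317). Both work at the exit from mitosis, and by their brightest probe sets no other mitotic gene had all CD133 high arrays lower.

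Promoters of the mitotic genes held letters of the CHR element and CCAAT boxes, known from genes of the late cell cycle. CHR letters were present in 16 of 21 promoters of mitotic genes (76.2%), in 4 of 27 of S phase genes (14.8%) and in 19.2% of all promoters, and CCAAT boxes in 18 of 21 (85.7%), 14 of 27 (51.9%) and 37.4%. These letters are short and therefore common. Shown, in the same window and with the same capitals, are Bub1 and Hmmr, whose CD133 high arrays were higher, and Ube2c and Ccnb2, whose values were lower.
Bub1 (GRCm38.p6, chr2:127831830-127832109, strand −): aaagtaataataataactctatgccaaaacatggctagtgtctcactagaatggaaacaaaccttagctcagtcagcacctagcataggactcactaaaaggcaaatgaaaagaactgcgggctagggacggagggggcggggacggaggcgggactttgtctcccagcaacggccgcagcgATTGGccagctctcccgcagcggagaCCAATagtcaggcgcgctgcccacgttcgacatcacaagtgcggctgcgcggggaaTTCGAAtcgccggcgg
Hmmr (GRCm38.p6, chr11:40733408-40733687, strand −): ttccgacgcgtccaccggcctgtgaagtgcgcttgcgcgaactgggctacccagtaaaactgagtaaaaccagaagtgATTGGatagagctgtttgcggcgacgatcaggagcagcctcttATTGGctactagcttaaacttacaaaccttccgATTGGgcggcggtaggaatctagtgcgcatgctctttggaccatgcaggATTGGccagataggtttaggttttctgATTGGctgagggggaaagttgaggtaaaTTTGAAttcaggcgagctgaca
Ube2c (GRCm38.p6, chr2:164769679-164769958, strand +): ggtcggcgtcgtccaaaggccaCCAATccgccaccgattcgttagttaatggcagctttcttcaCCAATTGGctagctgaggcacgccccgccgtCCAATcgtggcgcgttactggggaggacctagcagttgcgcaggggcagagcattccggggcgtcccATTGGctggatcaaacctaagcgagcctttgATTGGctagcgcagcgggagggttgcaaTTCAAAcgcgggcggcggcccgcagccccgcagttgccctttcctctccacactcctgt
Ccnb2 (GRCm38.p6, chr9:70421525-70421804, strand −): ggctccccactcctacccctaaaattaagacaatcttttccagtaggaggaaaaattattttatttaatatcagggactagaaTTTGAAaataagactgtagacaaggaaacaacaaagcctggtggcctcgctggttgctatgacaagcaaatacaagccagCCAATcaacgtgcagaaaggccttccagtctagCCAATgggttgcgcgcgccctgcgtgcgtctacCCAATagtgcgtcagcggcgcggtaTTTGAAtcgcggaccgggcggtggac
In Ube2c the CHR letters lie on the opposite strand, and 2 CCAAT boxes overlap. Genes on either side of the comparison held letters of both kinds.

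Mitotic cyclins and entry kinases were split. Ccnb2, the gene of cyclin B2, stood at 9.45, 9.51 and 9.17 (CD133 low) against 9.21, 8.30 and 8.58 (CD133 high). Replicates 2 and 3 of the CD133 high fraction were below all other arrays and replicate 1 was within the CD133 low range, and the difference was −0.68 (SE 0.25, adjusted p = 0.303). Ccna2, the gene of cyclin A2, which serves both S phase and mitosis, stood at 9.82, 9.84 and 9.57 on CD133 low arrays, with 9.50, 10.34 and 10.02 on CD133 high ones, a difference of 0.21 (SE 0.23, adjusted p = 0.65). A dimmer probe set of Ccna2, above background on all 6 arrays, gave the opposite sign. It stood at 8.78, 8.87 and 8.99 in the CD133 low and 8.58, 8.25 and 8.51 in the CD133 high fraction, without overlap, and differed by −0.43 (SE 0.16, adjusted p = 0.30). Aurka, the kinase of the spindle poles, differed by 0.16 (SE 0.22, adjusted p = 0.719).

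All 3 genes of the chromosomal passenger complex, which corrects faulty attachments and guides cytokinesis, had positive differences with overlapping fractions at their brightest probe sets, and 2 of the 3 turned sign under alternatives. With the hybridisation controls as covariate Birc5 was at −0.10 and Incenp at −0.089, and without probe sets of shared sequence Incenp was at −0.71. The covariate fit rests largely on CD133 high replicate 1, where Birc5 and Incenp lay at −0.039 and −0.037 from the CD133 low mean. Aurkb, the kinase of the complex, stood at 6.95, 7.37 and 7.52 (CD133 low) against 7.51, 8.27 and 8.63 (CD133 high). It was high on CD133 high replicates 2 and 3, while replicate 1 lay just under the highest CD133 low array. The difference was 0.86 (SE 0.32, adjusted p = 0.303). Birc5, the gene of survivin, stood at 9.74, 10.33 and 10.03 on CD133 low arrays, with 9.99, 10.70 and 10.83 on CD133 high ones and differed by 0.47 (SE 0.27, adjusted p = 0.397), and Incenp, the scaffold, stood at 9.25, 9.73 and 9.58 in the CD133 low and 9.48, 10.08 and 10.11 in the CD133 high fraction and differed by 0.37 (SE 0.23, adjusted p = 0.425). For Aurkb the other probe set gave −0.38 (SE 0.21, adjusted p = 0.394), the opposite sign, and both probe sets are of the kind that shares sequence with other transcripts.

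At the centromere Cenpe, a kinesin that carries chromosomes to the spindle equator, stood at 6.18, 6.31 and 6.96 (CD133 low) against 6.96, 7.57 and 7.69 (CD133 high). The CD133 low arrays were not above background, and CD133 high replicates 2 and 3 were. The measured difference was 0.92 (SE 0.31, adjusted p = 0.297), and the CD133 low level is only a bound. Cenpf, a kinetochore protein of G2 and mitosis, stood at 7.04, 7.13 and 7.33 on CD133 low arrays, with 7.16, 7.78 and 8.03 on CD133 high ones, a difference of 0.49 (SE 0.26, adjusted p = 0.379). Cenpa, the histone variant that marks centromeres, differed by −0.30 (SE 0.17, adjusted p = 0.398). A dimmer probe set of Cenpa, which may share sequence with other transcripts, gave the opposite sign, 1.27. It was above background on CD133 high replicates 2 and 3 alone. Of the checkpoint genes besides Bub1, the checkpoint kinase Bub1b differed by −0.29 (SE 0.23, adjusted p = 0.536) and Mad2l1, which holds back the anaphase promoting complex, by −0.28 (SE 0.16, adjusted p = 0.397). The checkpoint kinase Ttk was above background on none of the 6 arrays.

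Among kinesins and spindle genes, besides Hmmr, the brightest probe sets differed most for Kif23. Kif23, a motor of the midzone needed for cytokinesis, stood at 7.37, 7.57 and 7.72 in the CD133 low and 8.38, 7.60 and 8.52 in the CD133 high fraction, high on CD133 high replicates 1 and 3 and within the CD133 low range on replicate 2. The difference was 0.61 (SE 0.27, adjusted p = 0.331). Kif11, the motor that separates the spindle poles, differed by −0.07 (SE 0.20, adjusted p = 0.879), and Kif20a, another midzone motor, by −0.28 (SE 0.33, adjusted p = 0.673), with 1 of 6 arrays above background. Kif11 was above background on 4 of 6. Tpx2 and Nusap1, which bundle and stabilise spindle microtubules, differed by 0.16 (SE 0.16, adjusted p = 0.619) and 0.01 (SE 0.24, adjusted p = 0.992). For Tpx2 a dimmer probe set, above background on all 6 arrays, differed by 2.02 (SE 0.90, adjusted p = 0.331), with high values on CD133 high replicates 2 and 3 alone.

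**Figure D2:**
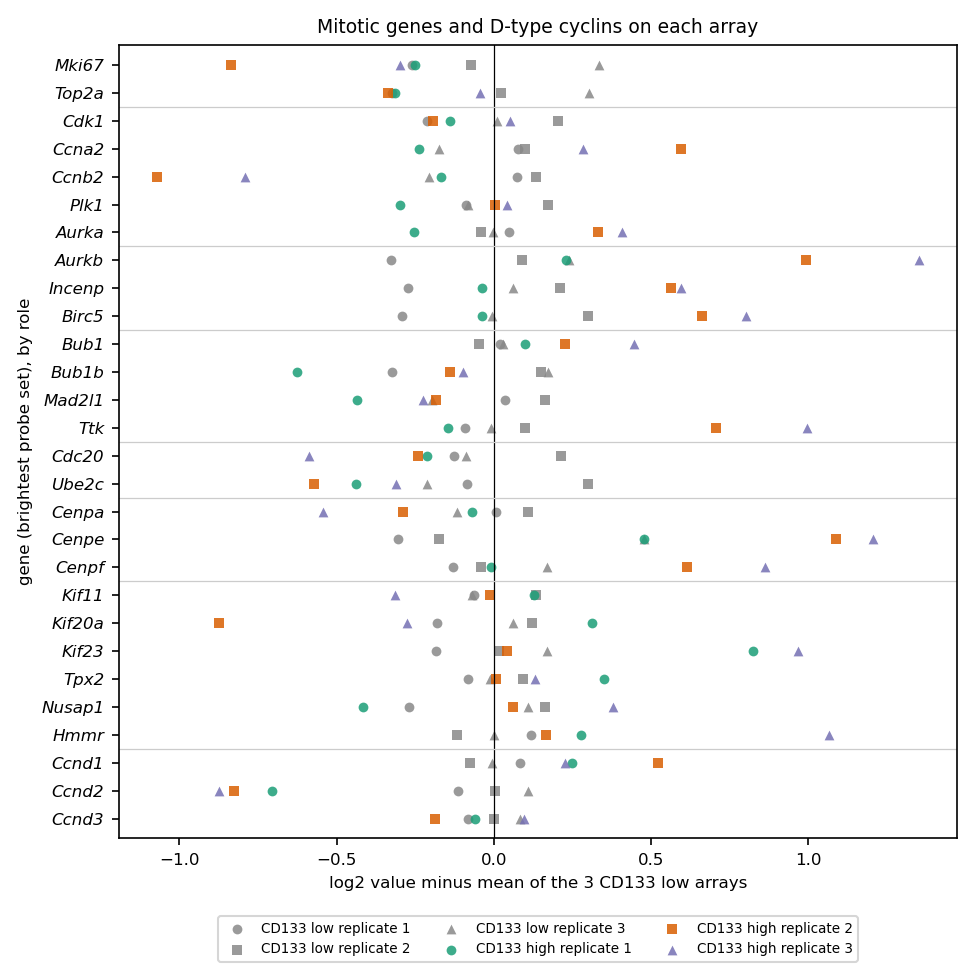
Each point is the log2 value of a mitotic gene or D-type cyclin on an array minus the mean of the 3 CD133 low arrays, with genes in rows by role. Ccnd2, at −0.70, −0.83 and −0.87 on CD133 high replicates 1, 2 and 3, is the gene whose CD133 high arrays lie close together and far from the CD133 low arrays.

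The D-type cyclins, which sense growth signals in G1 and partner Cdk4 and Cdk6, differed from each other in direction. Ccnd2 stood at 11.01, 11.13 and 11.23 (CD133 low) against 10.42, 10.30 and 10.25 (CD133 high). All CD133 high arrays were lower by more than the range of either fraction, CD133 high replicate 1 among them. The means were 10.32 ± 0.0882 and 11.12 ± 0.111 (SD, n = 3 arrays each), and the difference was −0.80 (SE 0.14, adjusted p = 0.123), with an interval of −1.13 to −0.47. Its adjusted p in limma missed the threshold of 0.05 here and passed under 2 of 18 alternatives, without CD133 high replicate 1 (0.00742) and with array weights (0.0351), and lay between 0.00742 and 0.566 across all 18. Of the 7 probe sets of Ccnd2, 6 had all CD133 high arrays below all CD133 low arrays. Those 6 differed by between −1.40 and −0.80, and the other by 0.43, with CD133 high replicate 2 highest. Probe sets of a gene share the same RNA and are not replicates. Ccnd1, the D-type cyclin of most epithelia, stood at 11.60, 11.43 and 11.51 on CD133 low arrays, with 11.76, 12.03 and 11.74 on CD133 high ones. Its CD133 high arrays were all higher, and the difference was 0.33 (SE 0.15, adjusted p = 0.337). A dimmer probe set of Ccnd1 had fractions apart in the same direction, at 0.85 (SE 0.28, adjusted p = 0.297), and another overlapping ones at −0.27. Ccnd3 stood at 9.33, 9.42 and 9.50 in the CD133 low and 9.36, 9.23 and 9.51 in the CD133 high fraction and differed by −0.05 (SE 0.14, adjusted p = 0.872), with overlapping arrays. Ccnd2 is also transcribed in lymphocytes, whose marker medians on CD133 high replicates 1, 2 and 3 are given above, and their part in the value of Ccnd2 was not tested.

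Probe sets of a gene often disagreed. There were 16 members with more than 1 probe set above background on all 6 arrays, and the differences had the same sign for 6 of them, or 37.5%, beside 52.8% of 3326 such genes on the whole array. Fen1 gave −0.98 (SE 0.22, adjusted p = 0.234) at the dimmer probe set, with all CD133 high arrays lower, against 0.23 at the brightest. Its dimmer probe set stood at 8.87, 8.89 and 8.85 (CD133 low) against 8.35, 7.62 and 7.68 (CD133 high). Mcm7 gave −0.94 at a probe set without shared sequence, and −0.13 and −0.12 at those of shared sequence beside the brightest. Tpx2 gave 2.02 and 2.09 at 2 dimmer probe sets that read 11.002 and 10.84 on CD133 high replicate 3 and 7.01 and 6.97 on replicate 1, while the brightest showed 0.16. Among all 129 probe sets of the members 1 passed the test, a dimmer one of Incenp that stood at 1.60, 1.24 and 0.86 on CD133 low arrays, with 5.48, 5.84 and 6.06 on CD133 high ones (adjusted p = 0.0186). It was not above background on any array, so no fold is given. Of all probe sets 0.182% passed, 0.0155% higher and 0.167% lower. Of the 5 Incenp probe sets, the brightest, of shared sequence, gave 0.37, and the next brightest gave −0.71. Shared sequence means a name ending in _s_at or _x_at, which Affymetrix gives to probe sets that may match several transcripts. Among S phase probe sets above background on all arrays and without shared sequence, 18 of 22 were negative with a median of −0.29. Of the 13 of shared sequence 7 were negative, with a median of −0.12. On the whole array the corresponding counts were 6055 of 12045 and 1248 of 2174, with medians of −0.00344 and −0.09. Some S phase genes have several of these probe sets, which are not replicates.

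**Figure D3:**
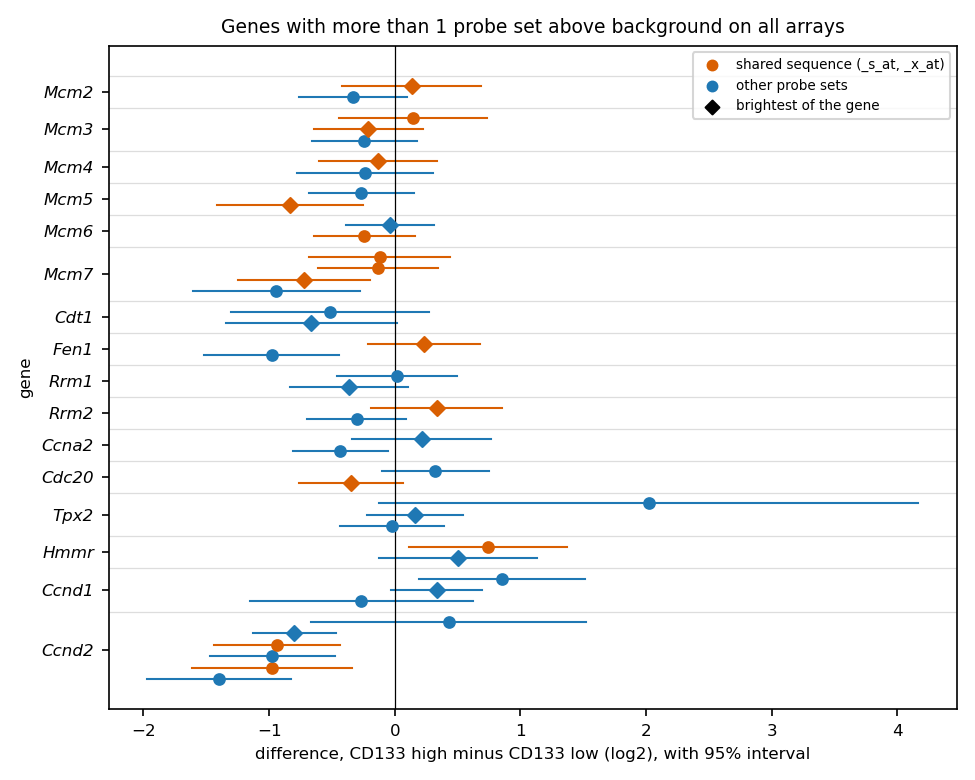
Each marker is the difference, the mean log2 value of the CD133 high arrays minus that of the CD133 low arrays, at a probe set above background on all 6 arrays, with its 95% interval, for the 16 members with more than 1 such probe set. Diamonds mark the brightest probe set, orange shared sequence and blue other probe sets, and 6 genes have all their markers on the same side of 0.

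How many members passed depended on CD133 high replicate 1. When it was left out, 18 of the 54 members passed in limma, 9 higher and 9 lower, where 26.3% of all genes passed, 11.7% higher and 14.6% lower. These counts set CD133 high replicates 2 and 3 against the CD133 low arrays. Their hybridisation controls and Gapdh differences were also the highest. With the hybridisation controls as covariate 0 of 54 members passed in limma. The share of all genes that passed with this covariate is not given here, so that 0 says nothing particular about the members. With the covariate the difference was −0.030 for Ccne1, 0.28 for Aurkb, −0.48 for Mcm5 and −0.72 for Ccnd2, beside 1.06, 0.86, −0.84 and −0.80 without it. As the covariate was highest on CD133 high replicates 2 and 3, these values rest largely on replicate 1. The part of the Gapdh differences was not tested. With array weights, which gave CD133 high replicate 1 the lowest weight, 11 of 54 members passed in limma, 4 higher and 7 lower, where 13.6% of all genes passed, 5.91% higher and 7.69% lower. Without CD133 high replicate 1, 7 S phase genes fell and 4 rose. The 7 that fell were the helicase subunits Mcm5 (−1.08, adjusted p = 0.00917) and Mcm7 (−0.91, adjusted p = 0.0185), the loading factor Cdt1 (−0.999, adjusted p = 0.00442), Gins1 (−0.68, adjusted p = 0.0262), the clamp Pcna (−0.90, adjusted p = 0.00554), its loader subunit Rfc4 (−0.93, adjusted p = 0.0347) and the primase subunit Prim1 (−1.11, adjusted p = 0.0121). For Gins1 CD133 high replicates 2 and 3 were not above background, so their level is only a bound. The 4 that rose, at their brightest probe sets, were Ccne1 (1.68, adjusted p = 0.00245), Uhrf1 (1.05, adjusted p = 0.00843), Pola1 (1.09, adjusted p = 0.0224) and Rrm2 (0.55, adjusted p = 0.029). Rrm2 and, among those that fell, Mcm5 each had a dimmer probe set of the opposite sign over all 6 arrays, as given above. That of Uhrf1 was also opposite, with 4.50 on CD133 high replicate 3, not above background, and 7.98 on replicate 2. Among mitotic genes Ccnb2 fell (−0.93, adjusted p = 0.0152), and Aurkb (1.17, adjusted p = 0.0206), Cenpe (1.15, adjusted p = 0.0392), Cenpf (0.74, adjusted p = 0.0355) and Birc5 (0.73, adjusted p = 0.045) rose. The 18 also count Ttk, which was above background on no array, so no difference is read from it. Of the D-type cyclins Ccnd2 fell (−0.85, adjusted p = 0.00742). The direction was not shared by CD133 high replicate 1 for all of these genes. Against the CD133 low mean replicate 1 lay at −0.18 for Ccne1, −0.15 for Uhrf1, 0.11 for Prim1 and 0.05 for Pcna, and at −0.35, −0.35 and −0.43 for Mcm5, Mcm7 and Rfc4.

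**Figure D4:**
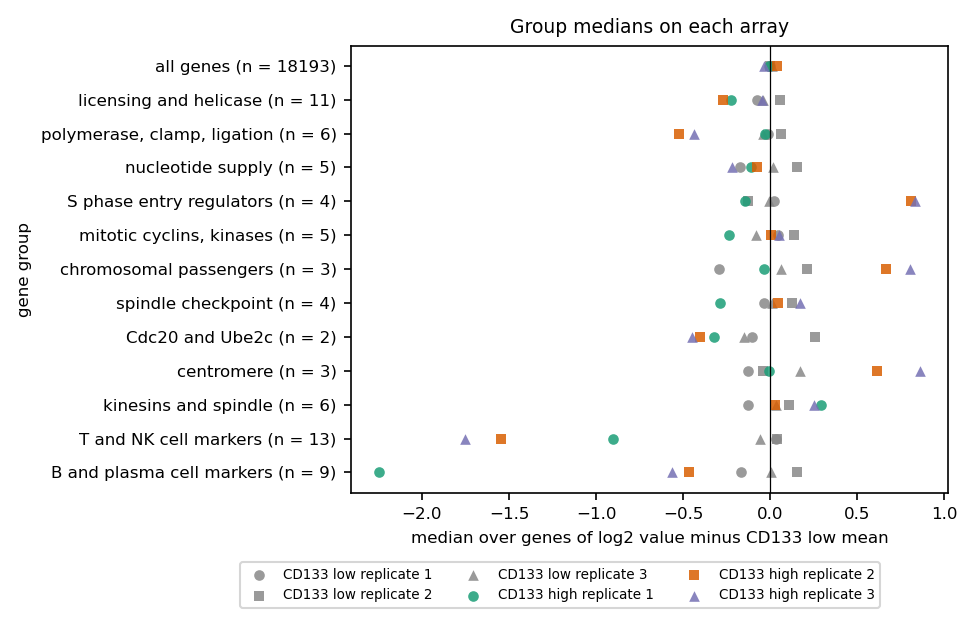
Each point is the median over the genes of a group of the log2 value minus the mean of the 3 CD133 low arrays, for each array. S phase entry regulators lie at 0.81 and 0.83 on CD133 high replicates 2 and 3 and polymerase, clamp and ligation genes at −0.52 and −0.44, and the lymphocyte marker lists are shown for comparison.

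Other genes of the cell cycle, listed with earlier results of these data known, gave the same count of 0. Of 38 further replication genes 0 rose and 0 fell in limma, with 1 higher and 11 lower at an unadjusted p under 0.05, where 8.3% and 9.94% of all genes were, and a median of −0.15. All CD133 high arrays were below all CD133 low arrays for 12 of the 38, and above for 2, where 12.8% and 10.8% of all genes were so. Those with the smallest p were Rpa2 (−1.41, adjusted p = 0.122) and Rpa1 (−0.76, adjusted p = 0.269), which coat single DNA strands, the polymerase delta subunit Pold2 (−0.98, adjusted p = 0.285) and the dUTPase Dut (−0.58, adjusted p = 0.297). Rpa2 stood at 8.02, 8.48 and 8.34 in the CD133 low and 7.17, 6.48 and 6.95 in the CD133 high fraction. All CD133 high arrays, replicate 1 included, lay below the CD133 low range. Rpa2 was above background on 1 of these 3 arrays, so its CD133 high level is only a bound. Of 52 further mitotic genes 0 passed in either direction, with 7 higher and 2 lower at an unadjusted p under 0.05 against the same shares, and a median of 0.13. Anln (1.15, adjusted p = 0.216) and Ect2 (1.07, adjusted p = 0.278), which act in cytokinesis, and Zwilch (0.73, adjusted p = 0.297), of the kinetochore, had positive differences, and Spc24 (−1.24, adjusted p = 0.291), also of the kinetochore, a negative one. Spc24 was above background on 1 of 3 CD133 high arrays, so its CD133 high level is only a bound. Of 25 Rb, E2F and MuvB regulators 0 passed, with 3 higher and 4 lower at an unadjusted p under 0.05, where 8.3% and 9.94% of all genes were. The smallest p were those of the lymphoid and progenitor factor Myb (−1.54, adjusted p = 0.187), the MuvB subunit Lin9 (1.004, adjusted p = 0.297), the S phase kinase Cdk2 (−0.46, adjusted p = 0.30) and the E2F partner Tfdp1 (0.48, adjusted p = 0.302). Myb was above background on 0 of the 3 CD133 high arrays, so its CD133 high level is only a bound. Of the 7 genes of CDK inhibitors 0 passed and 0 had an unadjusted p under 0.05 in limma, where 18.2% of all genes had. Cdkn1a, the p53 target p21, stood at 12.88, 12.73 and 12.92 (CD133 low) against 13.12, 11.97 and 12.03 (CD133 high), low on CD133 high replicates 2 and 3, and Cdkn2a, which encodes p16 and p19Arf, had a difference of 0.52 (adjusted p = 0.325). The other 2 with the smallest p were Cdkn1c (−0.52, adjusted p = 0.327) and Cdkn2d (−0.45, adjusted p = 0.434). Cdkn1c was above background on 1 of 3 CD133 high arrays.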

How the data were processed

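Total RNA of the sorted fractions was hybridised to Affymetrix arrays. What the authors deposited are log2 values per probe set; the summary of probes and the scaling of arrays are not given in the sources used here. By the series' description the array is a smaller type than the deposited table, which holds 45101 probe sets, 64 of them controls. Probe sets were named from the platform annotation: 34945 carried 1 gene, 932 several and 9160 none here. The values were fitted as deposited with limma 3.58.1 in R 4.3.3 (1 linear model per probe set, moderated by eBayes with a trend, two-sided). P-values were adjusted by Benjamini-Hochberg over 45037 probe sets at a threshold of 0.05, and intervals cover 95%. The code was tested on simulated data. With 3 arrays against 3, exact permutation p-values reach 0.1 at the lowest and are not given. Members and lists were chosen with earlier results of these data known; all members are named, and up to 4 genes of each other list with the smallest p. A match of letters was sought on both strands of RefSeq promoters, GRCm38.p6. Alternatives were other scalings, filters, variance models, array weights, probe set choices, a covariate and arrays left out. Precision is limited by the number of arrays. No batch is named in the labels. A further allele shared by all samples is not reported here.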

Additional observations from a re-analysis of the deposited data

How the results depend on the processing

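No paired analysis was possible because the labels number no replicates. Of 18 alternatives 16 called 0 of the 54 members at an adjusted p under 0.05 in limma, as did the fit reported, which had 9 members at an unadjusted p under 0.05, beside 18.2% of all genes. In the fit reported 0.253% of all genes passed, so a count of 0 is not particular to the members. Shares of all genes are given only for that fit, for array weights and without CD133 high replicate 1. Array weights called 11, of which 8 were S phase genes, 2 mitotic genes and 1 a D-type cyclin, where 13.6% of all genes were called. Leaving out each array in turn called 0 to 18 members, 0 to 11 S phase genes, 0 to 6 mitotic genes and 0 to 1 D-type cyclins. The highest counts came without CD133 high replicate 1, where 26.3% of all genes passed. The median of S phase genes was −0.29 without probe sets of shared sequence and −0.22 to −0.11 with each array left out. That of mitotic genes was −0.14 with CD133 high replicate 1 alone, −0.16 where hybridisation controls entered as a covariate, and −0.098 to 0.088 with each array left out. That of D-type cyclins was −0.19 with the mean over a gene's probe sets and −0.12 to 0.018 with each array left out. Aurkb gave no value without probe sets of shared sequence, and Tyms and Ttk none without the dimmest 50% of probe sets. Of 54 members 23 kept their sign under every alternative that gave a value, and 85 of 969 values of single members turned sign. With CD133 high replicate 1 alone against the CD133 low arrays the differences that turned sign were −0.25 for Aurka, −0.039 for Birc5, −0.24 for Ccna2, −0.18 for Ccne1, −0.25 for Cdc6, 0.0054 for Cdt1, −0.0081 for Cenpf, −0.12 for Fen1, −0.037 for Incenp, 0.13 for Kif11, 0.31 for Kif20a, −0.36 for Mcm2, 0.15 for Mcm4, −0.42 for Nusap1, 0.054 for Pcna, 0.11 for Prim1, −0.11 for Rrm2, −0.15 for Ttk and −0.15 for Uhrf1. With array weights they were −0.037 for Gins2, 0.041 for Mcm6, 0.0029 for Plk1 and 0.097 for Tyms. With medians set equal they were −0.030 for Gins2 and −0.040 for Nusap1. Where hybridisation controls entered as a covariate they were −0.20 for Aurka, −0.10 for Birc5, −0.29 for Ccna2, −0.030 for Ccne1, −0.26 for Cdc6, −0.14 for Fen1, −0.089 for Incenp, 0.024 for Kif11, 0.32 for Kif20a, −0.39 for Mcm2, 0.20 for Mcm4, −0.41 for Nusap1, 0.041 for Pcna, 0.019 for Rrm1, −0.15 for Rrm2, −0.10 for Ttk and −0.18 for Uhrf1. With the mean over a gene's probe sets they were −0.67 for Aurka, −0.11 for Ccna2, 0.36 for Cenpa, 0.27 for E2f1, −0.37 for Fen1, 0.24 for Gins1, −0.54 for Gins2, 0.10 for Kif11, −0.10 for Mcm2, −0.073 for Nusap1, 0.34 for Rrm1, −0.10 for Rrm2, 0.52 for Top2a, 0.32 for Tyms and −0.051 for Uhrf1. With quantile normalization they were −0.0092 for Gins2 and 0.0012 for Mcm6. Without probe sets of shared sequence they were 0.32 for Cdc20, −0.98 for Fen1, −1.09 for Gins2, −0.71 for Incenp, −0.33 for Mcm2 and −0.30 for Rrm2. Leaving out each array in turn turned the sign of some members, with ranges of −0.12 to 0.018 for Ccnd3, −0.20 to 0.0082 for Cdk1, −0.22 to 0.13 for E2f1, −0.078 to 0.088 for Gins2, −0.16 to 0.058 for Kif11, −0.57 to 0.017 for Kif20a, −0.046 to 0.38 for Mcm2, −0.27 to 0.050 for Mcm4, −0.082 to 0.051 for Mcm6, −0.18 to 0.22 for Nusap1, −0.15 to 0.023 for Plk1 and −0.28 to 0.16 for Tyms. Settings that take other probe sets or fewer arrays differ by construction. Hybridisation controls were highest on CD133 high replicates 2 and 3, so the covariate fit rests largely on replicate 1. It is no check apart from that of replicate 1 alone. The cause of the other turns was not tested. With 3 arrays per fraction, a difference had to be large against the spread of CD133 high arrays to pass, and 8 of the 54 members were not above background on all arrays.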
